A study of Mus musculus with 6 samples.

Results

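Simple tandem repeats are stretches of DNA in which a short motif follows itself many times, and the rows examined here hold the RNA reads that fell on such stretches, summed for each motif over the genome. Rows were taken from the deposited table of repeat elements where the name is a motif of plain A, C, G and T letters and the mean normalized count over the 6 libraries was at least 10. That rule kept 377 of 17171 simple repeat rows, of which 3055 had reads in 1 or more libraries, and the 377 made up part of 989 repeat elements of any kind at that level. Motifs that are rotations or reverse complements of each other, such as CAG, AGC and CTG, name the same double-stranded repeat sequence. With these merged the 377 rows came down to 124 distinct motifs. The rule used only the mean level over all libraries, so the levels are given as a description and the difference between the groups was not part of the choice.

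The RNA came from the cerebellar vermis, the midline strip of the cerebellum, of mice aged 8 wk, extracted as total RNA. The 3 control mice carry the strain name dCas and the 3 others the strain name LINE-1a, in which the retrotransposon LINE-1 is activated according to the series description. The sources used here do not give the alleles behind both names, the promoter that drives them, the cells they act in or what the 2 strains share. Each mouse gave 1 library, n = 3 in every group, and nothing in the labels says whether the mice came from separate litters, so every p-value measures only the spread between these mice.

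In a mammalian genome most simple repeats lie between genes, in introns and in untranslated regions, where a gain or loss of any number of bases is tolerated. Inside coding sequence, repeats are mostly of units whose length is a multiple of the codon, since a gain or loss of a unit then keeps the reading frame, and they encode runs of the same amino acids. Expanded triplet repeats in transcripts are known from inherited ataxias and other neurological disorders, and the RNAs that carry repeats bind splicing factors such as the muscleblind proteins.

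The following tracts show what such repeats look like in transcripts of this tissue. Each is a long run of its motif, of up to 60 bases, within coding sequence of genes with a mean of at least 100 normalized counts or within noncoding transcripts with at least 10, read from GENCODE M21 transcripts on GRCm38, given 5′ to 3′ on the transcript strand, with the first repeat unit in capitals. The first 6 lie in coding sequence and the last 3 in transcripts without a coding region.
GGA in Kif1a, chr1:93051493-93051543, minus strand, coding: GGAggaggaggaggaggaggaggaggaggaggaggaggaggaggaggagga
CAG in Kmt2d, chr15:98849588-98849637, minus strand, coding: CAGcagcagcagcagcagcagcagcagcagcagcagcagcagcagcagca
GAA in Gab3, chrX:74999980-75000030, minus strand, coding: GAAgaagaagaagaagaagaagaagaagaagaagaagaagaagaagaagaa
TGA in Pde3b, chr7:114534750-114534775, plus strand, coding: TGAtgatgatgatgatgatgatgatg
GTG in Setd1a, chr7:127785318-127785357, plus strand, coding: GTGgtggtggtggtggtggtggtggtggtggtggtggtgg
TCCTCA in Olig1, chr16:91270006-91270028, plus strand, coding: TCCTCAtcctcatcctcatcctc
CAAA in Meg3, chr12:109545617-109545643, plus strand, noncoding: CAAAcaaacaaacaaacaaacaaacaa
AC in Dbpht2, chr12:74299055-74299107, plus strand, noncoding: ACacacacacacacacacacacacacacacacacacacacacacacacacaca
ATTT in Peg13, chr15:72808817-72808840, minus strand, noncoding: ATTTatttatttatttatttattt
Kif1a encodes a kinesin motor of axonal transport, Kmt2d and Setd1a encode histone methyltransferases, and Olig1 is a transcription factor of the oligodendrocyte lineage. Meg3 and Peg13 are long noncoding RNAs of imprinted loci. Which of these tracts gave the reads of a row cannot be read from the table, which sums over all genomic copies.

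Of 420424 to 603366 repeat reads per library, the 377 rows took 33302 to 38926, or 6.45% to 8.46% of the repeat reads. A row had a median of 40 reads in a library and a range of 0 to 2933. Of the 377 rows, 27 had under 10 reads in at least 1 library and 2 had none in at least 1 library. Genes took 23483158 to 33445789 reads in each library. All 3 Purkinje cell markers (Pcp2, Calb1 and Itpr1) and all 3 granule cell markers (Gabra6, Cbln3 and Neurod1) were present in every library. Calb1 lay between 4705 and 6911 normalized counts and Gabra6 between 14572 and 17492. Itpr1 was at 26481 and 35559 in LINE-1a 2 and 3 against 43144 to 56260 in the other 4 libraries, and Cbln3 at 16064 and 22306 against 30157 to 45001. The libraries differed in several ways that the strain names do not give. Transthyretin (Ttr), the marker of the choroid plexus, which lies in the ventricle beside the cerebellum, was at 81570, 760 and 144 normalized counts in the dCas libraries and at 1208, 34324 and 102965 in the LINE-1a libraries. Y-linked expression was absent in LINE-1a 1 and LINE-1a 2 and present in the other 4 libraries, so sex and strain cannot be told apart except through LINE-1a 3.

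Reads were concentrated in few motifs. The 10 rows with the highest means held 28.9% of the summed level of all 377, and 55 rows had a mean of at least 100. A row's value grows with the number and length of its genomic copies, and it was not divided by them, so levels of different motifs cannot be compared as expression per length. The row (T)n, the reads on runs of T, was highest, with 1946, 1884 and 2101 normalized counts in the dCas libraries and 2356, 1807 and 1942 in the LINE-1a libraries. Its complement (A)n held 940, 925 and 976 against 1120, 1030 and 1003. The LINE-1a values of (A)n lay above every dCas value, while those of (T)n spanned them. The next rows were (TTGT)n with a mean of 963, (TTC)n with 653, (TCC)n with 645 and (CTCCTC)n with 632. At the lower limit of 10, the nearest rows inside were (CTCCTT)n with a mean of 10.004, (CATGCAC)n with 10.05, (CCCT)n with 10.06 and (TGAAGC)n with 10.06. The nearest rows outside were (CGCAGC)n with 9.88, (ATCC)n and (AAGAAGC)n with 9.86 and (TTTGG)n with 9.85.

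No simple repeat passed the test between LINE-1a and dCas mice. With limma on log2(normalized count + 1), two-sided and adjusted over all 989 repeat elements by the Benjamini-Hochberg method, 0 of 377 were called higher and 0 lower at a threshold of 0.05. The background in the whole table was 0% in both directions, and the smallest adjusted p of a simple repeat was 0.305 in limma. An unadjusted p under 0.05 was reached by 9 of the 377 on the higher side (2.39%, beside 9.4% of all 989) and by 39 on the lower side (10.3%, beside 5.46% of all 989). The groups did not overlap in 34 rows with LINE-1a higher (9.02%, beside 13.8% of all 989) and in 40 with LINE-1a lower (10.6%, beside 5.46%). Without LINE-1a 1, limma called 4 simple repeats higher and 52 lower, 40 of the 52 with a motif length that is a multiple of 3. Those 56 were 14.9% of the simple repeats, beside 15.8% of all 989 elements called in that fit (6.88% higher and 8.9% lower). Leaving out any of the other 5 libraries gave 0. On the whole reads recovered from the table, edgeR called 0 and DESeq2 called 1 higher, (CCTGCCT)n, and 1 lower, (CTGA)n, beside 0.303% of all 989 called in DESeq2. The row (CCTGCCT)n had a dCas mean under 10 and met the limit on the mean only through its LINE-1a values. So did 8 other rows, while 20 rows met it only through their dCas values.

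The simple repeats lay somewhat below the other repeat elements. Their median log2 fold change, LINE-1a minus dCas, was -0.12, with 153 rows above 0 and 224 below, while the median was 0.051 over all 989 elements and 0.10 over the 612 that are not simple repeats. In the single libraries, the median deviation of the simple repeats from the dCas mean was -0.048, -0.040 and 0.081 in the dCas libraries and 0.072, -0.25 and -0.16 in the LINE-1a libraries. LINE-1a 2 and 3 were thus below every dCas library and LINE-1a 1 was within their range. The sign against 0 depends on the scaling. With libraries set to equal totals, the median of all 989 elements moved from 0.051 to 0.33 and 239 simple repeats were above 0 and 138 below. A scaling shifts all rows of a library alike in log2, apart from the pseudocount. The distance between the simple repeats and the whole table could therefore hardly change, and it was between -0.17 and -0.18 under 5 scalings. Medians that follow are read against the table median or between classes of motifs. Counts of rows above and below 0 are those of the deposited scaling unless another is named. Without LINE-1a 1 the median of the simple repeats was -0.23 and its distance to the table -0.29. Without LINE-1a 2 these were -0.035 and -0.080, and without dCas 3 they were -0.058 and -0.097. In bulk RNA, fewer cells of a type and less RNA per cell cannot be told apart.

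**Figure D1:**
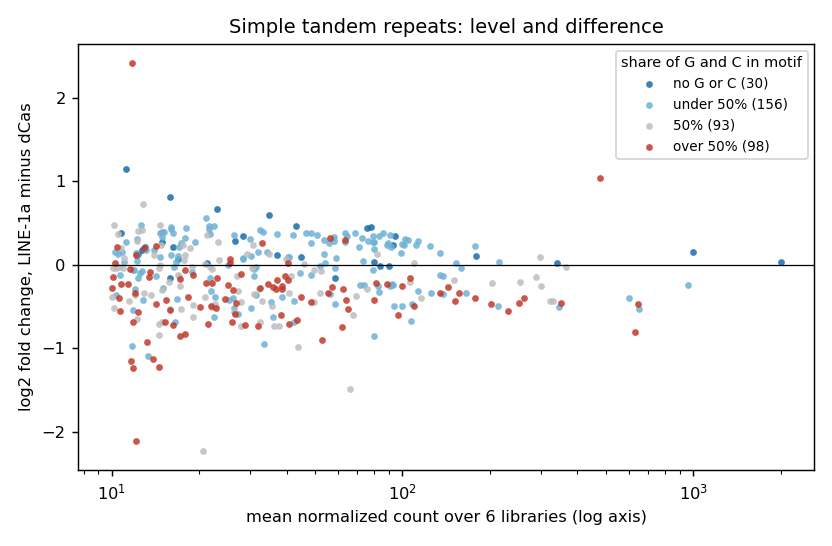
Each point is 1 of the 377 simple repeat rows, with its mean normalized count over 6 libraries on a log axis and its log2 fold change (LINE-1a minus dCas) on the vertical axis, coloured by the share of G and C in the motif. Rows without G or C lie mostly above 0 and rows over 50% GC mostly below, at low and at high levels.

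Of the 5 rows with the smallest p on the lower side, the 3 of highest mean were triplets or built of triplets. The row (CTCCTC)n, a doubled CTC that belongs to the same repeat as AGG, had 729, 773 and 877 normalized counts in dCas and 659, 325 and 432 in LINE-1a. Every LINE-1a value lay below every dCas value, with LINE-1a 1 closest. The means were 793 ± 75.9 (SD, n = 3) and 472 ± 171 (SD, n = 3), a log2 fold change of -0.81 with a standard error of 0.23 and an adjusted p of 0.305 in limma. The row (TGA)n held 122, 136 and 134 against 112, 60.4 and 79.2, and its log2 fold change was -0.68 ± 0.21 (SE). The row (GAA)n, a motif whose intronic expansion in the frataxin gene causes Friedreich ataxia in humans, held 97.7, 115 and 116 against 87.7, 64.1 and 81.3, with -0.50 ± 0.15 (SE). Neither row's groups overlapped, and LINE-1a 2 was the lowest library in both. The complement (TTC)n, among the most abundant rows, held 700.1, 777 and 814 against 712, 405 and 509, with overlap through LINE-1a 1 and a log2 fold change of -0.53 ± 0.19 (SE).

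The other rows of smallest p on that side had lower means, and the smallest p of all was that of (CTGA)n, which is not a triplet. The row (CTGA)n had 64.4, 111 and 112 normalized counts in dCas and 58.5, 16.6 and 34.3 in LINE-1a, without overlap and with a log2 fold change of -1.49 ± 0.42 (SE). The row (CTCAGA)n had means of 18.8 ± 1.95 in dCas and 10.3 ± 3.10 in LINE-1a (SD, n = 3). Both motifs had few tracts in the transcripts searched, 1 for (CTGA)n and 2 for (CTCAGA)n. The largest spread within the groups belonged to (GCTAGT)n, with 39, 44 and 36 reads in dCas and 21, 0 and 20 in LINE-1a, and to (CTTCTGC)n, with 29, 17 and 27 reads against 11, 0 and 10. Both were at 0 reads in LINE-1a 2 alone. Also among the rows of widest spread, (CTCCAC)n had 20, 22 and 28 reads in dCas and 28, 2 and 11 in LINE-1a, with overlap.

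On the higher side, the row of smallest p was (CCTGCCT)n, with 4, 1 and 6 reads in dCas and 7, 50 and 36 in LINE-1a. Its normalized means were 2.81 ± 1.95 and 20.7 ± 12.9 (SD, n = 3), a log2 fold change of 2.41 ± 0.62 (SE), and LINE-1a 1 lay just above the highest dCas library. The size of that difference is partly set by the limit on the mean, which the row met through LINE-1a alone, as did (ACAG)n and (TTATT)n. With all rows of the motif of (CCTGCCT)n summed, the log2 fold change was 0.86 ± 0.26 (SE). The most abundant row on this side was (GCTCT)n, with 336, 339 and 217 normalized counts in dCas and 385, 1052 and 530 in LINE-1a. The groups of (GCTCT)n did not overlap, LINE-1a 2 was far above the rest, and the log2 fold change was 1.04 ± 0.34 (SE). Each of these motifs had 1 tract in the transcripts searched. The others were short motifs of few reads, namely (ATAA)n with 0.81 ± 0.22 (SE), (ACAG)n with 0.73 ± 0.21 (SE) and (TTATT)n with 1.14 ± 0.35 (SE). The row (ATAA)n held 9.85, 13.6 and 10.1 normalized counts in dCas and 17.7, 24.6 and 18.9 in LINE-1a, and the groups of all 5 rows on this side did not overlap. The adjusted p of each was 0.305 in limma.

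By their medians, motifs of 3 and 6 bases stood apart from motifs of 4 and 5. Length here is that of the motif in the row name, and 36 of the 377 rows are built of a shorter unit. Thus (CTCCTC)n, a doubled triplet, counts as 6 bases, and (ACACAC)n, built of 2-base units, counts as a multiple of 3. The classes of 3 and 6 bases therefore share repeats. The median log2 fold change of the 47 triplet rows was -0.35, with 7 above 0 and 40 below, and the 140 rows of 6 bases had -0.34, with 30 above and 110 below. The 78 rows of 4 bases had a median of 0.18, with 58 above 0 and 20 below, and the 50 rows of 5 bases had 0.064. The 4 single-base rows had 0.025, the 12 rows of 2 bases -0.026, and the 46 rows of 7 or more bases -0.15. Grouped by whether the motif length is a multiple of 3, 188 rows had a median of -0.34 and 189 rows 0.11, a difference of -0.45. With the rows of a motif summed, over 171 motifs, the difference was smaller, at -0.32. Without LINE-1a 2 the difference was -0.29, with a median of -0.19 for both 3 and 6 bases, and without LINE-1a 1 it was -0.58. Without dCas 3 the medians for 3 and 6 bases were -0.21 and -0.24. At an unadjusted p under 0.05, 28 of the 188 were lower (14.9%) and 1 higher (0.532%), while 11 of the 189 were lower (5.82%) and 8 higher (4.23%), beside 5.46% lower and 9.4% higher of all 989.

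In the single libraries, the median deviation of the triplet rows from the dCas mean was -0.15, -0.0033 and 0.18 in the controls and -0.0086, -0.60 and -0.37 in the LINE-1a mice. The rows of 6 bases gave -0.11, -0.033 and 0.12 against 0.033, -0.56 and -0.38. The rows of 4 bases gave 0.043, -0.037 and 0.0041 against 0.11, 0.20 and 0.14. LINE-1a 1 was therefore inside the range of the controls for 3 and 6 bases, and all 3 LINE-1a libraries were above the controls for 4 bases. The median of multiples of 3 minus that of the other lengths was -0.16, 0.045 and 0.090 in the controls and -0.13, -0.65 and -0.42 in the LINE-1a mice, so the groups overlapped in that difference through dCas 1 and LINE-1a 1. Scaling could hardly change the difference between classes either, and it ran from -0.43 to -0.45 under 5 scalings and 2 count tools. The signs did depend on the scaling. With equal totals the medians of multiples of 3 and of other lengths became -0.052 and 0.39. The triplet rows then had 18 above 0 and 29 below, the rows of 6 bases 64 and 76, and the rows of 4 bases 72 and 6.

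**Figure D2:**
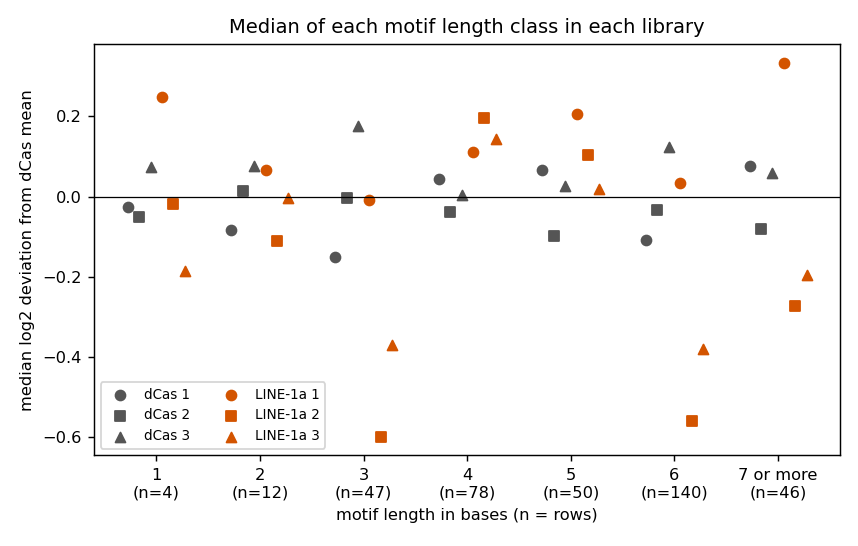
Each point is the median log2 deviation from the dCas mean of all rows of a motif length class (horizontal axis, in bases, n = rows) in 1 library, with dCas in grey and LINE-1a in orange. LINE-1a 2 and 3 lie between -0.60 and -0.37 for 3 and 6 bases, while LINE-1a 1 stays among the controls there.

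The share of G and C in the motif gave a second ordering. The median log2 fold change was 0.19 for the 30 rows without G or C, with 26 above 0 and 4 below, and 0.076 for the 156 rows with some but under 50%. The 93 rows at 50% had -0.20 and the 98 rows over 50% had -0.37, with 13 above 0 and 85 below. The median of rows over 50% minus that of rows without G or C was -0.18, 0.12 and 0.052 in the dCas libraries and -0.33, -0.84 and -0.52 in the LINE-1a libraries. Here all 3 LINE-1a libraries lay below all 3 controls, with LINE-1a 1 closest. Without LINE-1a 2 the medians at 50% and over 50% were -0.069 and -0.23, and without LINE-1a 1 the median at 50% was -0.33. Across the 377 rows, GC share and log2 fold change had a Spearman rho of -0.53, which is a description only, since rows share libraries and many share a motif.

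Length and GC share each kept an ordering within the other. Among rows with motif lengths that are multiples of 3, the medians were 0.049 without G or C (8 rows), -0.14 under 50% (67 rows), -0.38 at 50% (53 rows) and -0.42 over 50% (60 rows). Among the other lengths they were 0.23 (22 rows), 0.22 (89 rows), 0.0055 (40 rows) and -0.23 (38 rows). Multiples of 3 were lower in each of the 4 GC classes. With equal totals, the medians of the 4 GC classes over all lengths became 0.47, 0.36, 0.083 and -0.088, in the same order.

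**Figure D3:**
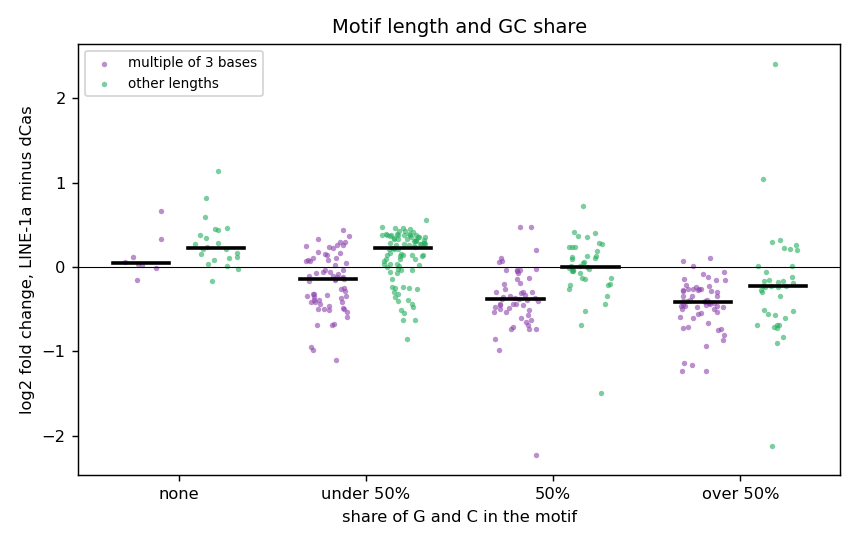
Each point is 1 simple repeat row, placed by the share of G and C in its motif and by whether the motif length is a multiple of 3 bases, with its log2 fold change on the vertical axis and the median of each set as a black line. The medians run from 0.049 to -0.42 for multiples of 3 and from 0.23 to -0.23 for other lengths.

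Where in transcripts a motif occurs was taken from 1 transcript per gene, as perfect tandem tracts of at least 20 bases and 3 copies in genes with a mean normalized count of at least 10. This search, its limits and its classes were chosen after the values of the rows had been seen. It found 5701 tracts in 3648 genes, and introns were not analysed here. Tracts of 3-base units lay in coding sequence in 45.4% of 796 cases, those of 6-base units in 34.4% of 622, and those of 9-base units in 60.9% of 69. For units of 1, 2, 4, 5 and 7 bases that share was between 0.0523% and 0.714%, and most of those tracts were in 3′ untranslated regions.

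Rows of motifs whose transcript tracts lay mostly in coding sequence had lower values than rows of motifs without a coding tract. The rows sum reads over all genomic copies, introns included, so these shares do not say where the reads of a row came from. A share in coding sequence was given to the 267 rows whose motif had at least 5 tracts. The median log2 fold change was 0.18 for the 142 rows whose motif had no coding tract, with 104 above 0 and 38 below. The 76 rows with up to 50% coding tracts had -0.048, and the 49 rows with more than 50% had -0.40, with 4 above 0 and 45 below. All 49 had lengths that are multiples of 3 and fell into 9 motifs. The remaining 110 rows, whose motif had under 5 tracts (52 of them none), had a median of -0.41, so low values were not limited to motifs with a coding share. Without a coding tract, the medians were 0.10 for 21 rows of multiples of 3 (15 above 0, 6 below) and 0.21 for 121 rows of other lengths. With up to 50% coding tracts they were -0.13 (48 rows) and 0.096 (28 rows). With under 5 tracts they were -0.43 (70 rows) and -0.30 (40 rows, 8 above 0 and 32 below). The median of the 21 rows of multiples of 3 without a coding tract lay above the table median of 0.051. Those rows fell into 7 motifs and had a median GC share of 16.7%, beside 50% for all multiples of 3. The part of GC share in their values was not tested. The coding share and the log2 fold change had a Spearman rho of -0.61 over the 267 rows, and GC share and coding share one of 0.43, again as descriptions of rows that share libraries.

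Among the 142 rows of motifs without a coding tract, the medians were 0.28 without G or C (21 rows), 0.21 under 50% (74 rows), 0.089 at 50% (33 rows) and -0.17 over 50% (14 rows). The order by GC share was therefore present where no coding tract was found. Rows with more than 50% coding tracts minus rows with none was -0.22, 0.076 and 0.18 in the dCas libraries and -0.17, -0.999 and -0.51 in the LINE-1a libraries. The groups overlapped through dCas 1 and LINE-1a 1, and LINE-1a 2 and 3 were below all controls. The 512 genes with a coding tract had a median of 0.12 in the gene table, beside 0.11 for 525 genes with a tract in the 5′ untranslated region, 0.048 for 2851 with one in the 3′ untranslated region and 0.016 over all 15270 genes, and 2 of the 512 passed the limma test (background 0.133% higher and 0.0127% lower of 15800 features).

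**Figure D4:**
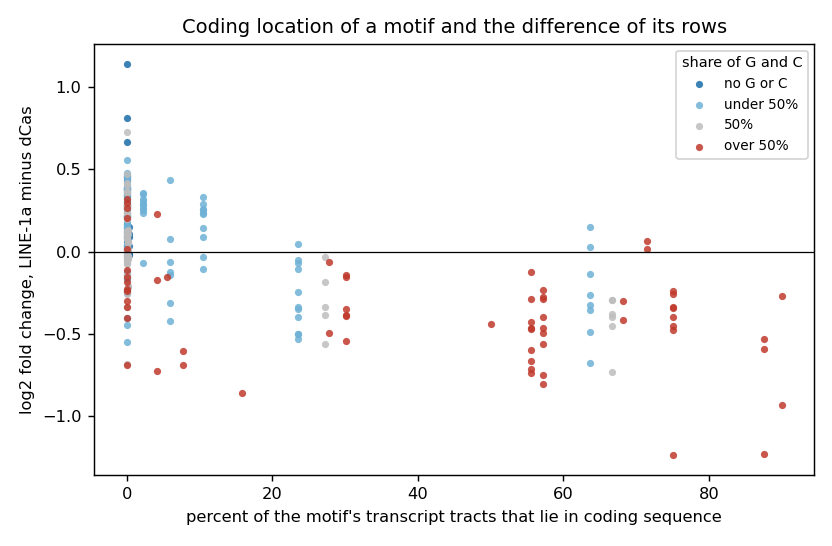
Each point is 1 of the 267 simple repeat rows whose motif has at least 5 tracts, with the percent of those tracts in coding sequence on the horizontal axis and the log2 fold change on the vertical axis, coloured by GC share. Rows at 0% have a median of 0.18 and rows above 50% one of -0.40.

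Rows that share a motif hold repeats of the same sequence and were not treated as independent of each other. The sources used here do not say whether such rows share genomic copies. Of the 124 motifs, 62 had 1 row and 34 had at least 4 rows. Of these 34, all rows were below 0 in 10, all were above 0 in 5 and both signs occurred in 19. Signs are those of the deposited scaling. The AGG repeat had 9 rows, including (TCC)n, (GGA)n and (CTCCTC)n, all below 0 and between -0.81 and -0.23, and 7 of the 9 stayed below with equal totals. Summed, its rows gave 2105, 2228 and 2638 normalized counts in dCas and 2103, 1129 and 1561 in LINE-1a. LINE-1a 1 was level with dCas 1 in that sum, and LINE-1a 2 was the lowest.

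The AGC repeat, which read as CAG encodes runs of glutamine, serine or alanine depending on the frame, had 8 rows, all below 0 and between -1.24 and -0.24, of which 6 stayed below with equal totals. Of its 213 tracts, 75.1% were coding, and its summed rows gave 1130, 1457 and 1517 against 1331, 856 and 960.0. The row (CAG)n, the repeat of the polyglutamine ataxias, held 225, 340 and 310 normalized counts in dCas and 261, 168 and 210 in LINE-1a, and the groups overlapped. Its log2 fold change was -0.45 ± 0.20 (SE), and its complement (CTG)n had -0.34 ± 0.22 (SE).

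The ACC repeat (9 rows, median -0.47), AAG (11 rows, -0.34), ATC (8 rows, -0.29) and CCG (6 rows, -0.37) lay on the same side. All rows of ACC and CCG were below 0, as were 10 of 11 of AAG and 6 of 8 of ATC. With equal totals those below 0 were 8 of ACC, 4 of CCG, 6 of AAG and 4 of ATC. The row (CGG)n, the motif expanded in fragile X syndrome, held 11.4, 22.0 and 24.8 against 14.2, 10.5 and 12.6, and (CCG)n 22.0, 36.4 and 72.0 against 41.6, 29.0 and 35.7. The groups of both overlapped, and dCas 3 was the highest library in both. The motifs AAGATG (11 rows) and AGGATG (6 rows) had every row below 0, also with equal totals, and medians of -0.43 and -0.44. Their few tracts in the transcripts searched, 1 and 2, were coding.

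Some of the repeats made only of A and T were on the other side, while others were near the table median of 0.051. All 8 rows of AAAT were above 0, with a median of 0.28, and their summed rows gave 177, 177 and 179 normalized counts in dCas against 229, 235 and 200 in LINE-1a. The 3 dCas sums lay within a spread of 1.19 (SD) and every LINE-1a sum was above them. The 4 rows of AAT had a median of 0.23, the 3 rows of AT 0.44, and the 8 rows of AGAT, which holds a G, 0.29, all rows above 0. These directions held with equal totals, gene size factors and TMM factors, except for 1 row of AAAT that was below 0 with TMM. The row (TA)n held 57.6, 66.0 and 72.8 in dCas and 76.2, 102 and 93.2 in LINE-1a, without overlap, and its log2 fold change was 0.46 ± 0.16 (SE). The row (AT)n, a rotation of the same motif, held 47.7, 72.0 and 73.6 against 93.0, 100.4 and 68.0, with overlap. The 6 rows that are runs of A or T had a median of 0.061, with 4 above 0 and 2 below. Their summed mean level was 3402, beside 4576 for all 30 rows without G or C. Most of the reads on such repeats thus fell on rows near the table median. Of those 30 rows, 26 were above 0 and 4 below.

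The AC repeat, the commonest motif in the transcripts searched with 1313 tracts and none of them coding, differed little between the groups. Its 12 rows had a median log2 fold change of -0.027 and ranged from -0.25 to 0.24, and their sums were 1449, 1451 and 1506 in dCas and 1464, 1271 and 1474 in LINE-1a. The row (TG)n had -0.031 ± 0.14 (SE), and (CA)n had -0.25 ± 0.12 (SE) with no overlap of the groups. With equal totals all 12 AC rows were above 0. The AG repeat (11 rows) had a median of 0.018, with (GA)n at 0.13 ± 0.12 (SE) and (TC)n at -0.22 ± 0.12 (SE).

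Complementary rows could be compared for 97 pairs, and 75 of them had the same sign. The median absolute difference between the log2 fold changes of partners was 0.17, and the median ratio of the higher to the lower mean was 1.97. The widest ratio was between (TTGT)n, with a mean of 963, and (ACAA)n, with 15.98, a ratio of 60.3. Their log2 fold changes were -0.24 ± 0.17 (SE) and 0.43 ± 0.26 (SE). The sources used here do not say whether the counting used strand, so a row cannot be read as transcription of that strand.

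Some rows of wide interest were too low to test. The telomere repeat (TTAGGG)n had 6, 3 and 2 reads in dCas and 9, 8 and 4 in LINE-1a, and its complement (CCCTAA)n had 9 reads over all 6 libraries. The row (CG)n had 13 reads in all, while 1 other row of the CG repeat met the limit, with a mean of 12.3 and a log2 fold change of -0.57. The rows (GGGGCC)n and (CCCCGG)n, the repeat of C9orf72 disease in humans, and (ATTCT)n, that of a human spinocerebellar ataxia, had 0 reads in every library, which allows up to 3 reads of a library's total by counting error alone.

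Other properties of the libraries also differed, and not all of them followed the class differences. LINE-1a 2, with the largest gap between multiples of 3 and other lengths, had the highest share of ribosomal RNA rows among the repeat reads, 10.2%, against 5.39% to 7.86% in the other 5 libraries. LINE-1a 3, with the next largest gap, had 5.75%, and LINE-1a 1, within the range of the controls in that gap, had 7.86%. LINE-1a 2 also had the lowest level of Mbp, the myelin basic protein gene of oligodendrocytes, at 55890 normalized counts, and LINE-1a 3 the next lowest, at 82431, against 113973 to 162301 in the other 4. The highest Mbp level, 162301, was in dCas 1. The choroid plexus sum of Ttr, Kl, Folr1 and Kcne2, with all 4 detected in each library, ran from 167 to 83329 in dCas and from 1273 to 104663 in LINE-1a. It was high in LINE-1a 2 and 3 and in dCas 1, the control with the most negative class differences. The part of these properties in the class differences was not tested.

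**Figure D5:**
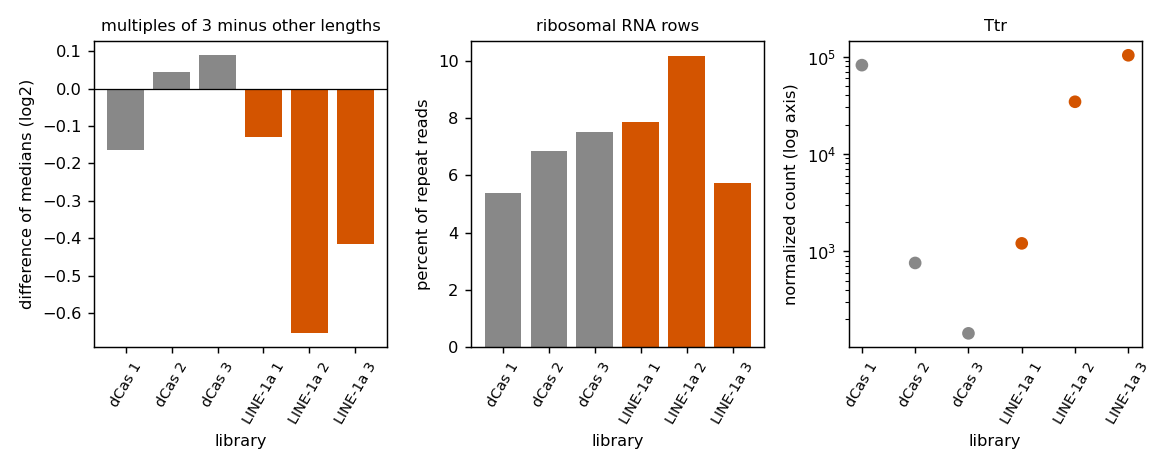
For each library, the left panel shows the median deviation of multiples of 3 minus that of other lengths as a bar from 0, the middle panel the percent of repeat reads on ribosomal RNA rows, and the right panel the Ttr normalized count on a log axis, with dCas in grey and LINE-1a in orange. LINE-1a 2 has the lowest bar on the left and the highest ribosomal share. LINE-1a 1 lies within the range of the controls in the left and right panels, and in the right panel so does LINE-1a 2.

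Genes that act on repeats were read in the gene table. Of 38 proteins known to bind repeat RNA, 37 were tested, 0 passed the limma test in either direction, and an unadjusted p under 0.05 was reached by 9 on the higher side (24.3%, beside 7.94% of all 15800 features) and by 2 on the lower (5.41%, beside 7.35%). Their median log2 fold change was 0.15, beside 0.028 over all 15800 features. Sfpq, a paraspeckle protein, had 1198, 974 and 741 normalized counts in dCas and 1194, 1866 and 1364 in LINE-1a, with overlap, a log2 fold change of 0.60 ± 0.22 (SE). Mbnl2, a muscleblind splicing factor that binds expanded CUG repeats, had 0.47 ± 0.17 (SE). The adjusted p of both was 0.325 in limma.

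Of 17 genes of mismatch repair and repeat stability, all were tested, 0 passed in either direction, and an unadjusted p under 0.05 was reached by 0 on the higher and 1 on the lower side (5.88%, beside 7.35% of all features), with a median of 0.015. Fen1, the flap endonuclease, had 1020, 1213 and 1258 normalized counts in dCas and 979, 386 and 781 in LINE-1a, a log2 fold change of -0.80 ± 0.30 (SE). Rpa1, a subunit of the single-strand DNA binding complex, had -0.66 ± 0.30 (SE), and Msh3, a mismatch recognition protein that drives somatic expansion of triplet repeats, had 0.28 ± 0.15 (SE). In Fen1 and Rpa1, as in the triplet rows, LINE-1a 2 was the lowest library and LINE-1a 1 the LINE-1a library nearest the controls.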

How the data were processed

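Per the labels' protocols, RNeasy Fibrous Tissue columns gave the vermis total RNA, and NEBNext Ultra II reagents turned it into sequencing libraries. The authors deposited normalized counts, a signal in which a library's reads are divided by its size factor, in a table of genes and a RepEnrich table of repeat elements. The builds mm10 and GRCm38 and the tools bedtools 2.27.1, Bowtie2 2.2.9, DESeq2, SAMtools 1.9 and STAR 2.5.3a come from the submitters' processing notes. The sources used here give neither their roles nor the use of strand, nor how reads that fit several repeats were assigned. All values of both tables (100%) were within 0.001 of a whole number of reads once divided by the smallest step of their library. A deposited table of single retrovirus loci was not used.

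In R 4.3.3, limma 3.58.1 with a trend tested log2(normalized count + 1) for all repeat elements, or genes, with a mean of at least 10, with adjustment over the whole table. The log2 fold changes are of these values, so for low rows they understate the change. Alternatives varied scaling, filter, pseudocount, weights, replicate block, libraries and tool (edgeR 4.0.16 and DESeq2 1.42.0 on whole reads), and fits were tested on simulated data. Tables were handled in Python 3.11.15 with pandas 2.3.3 and numpy 2.4.6. Tracts with units up to 10 bases were searched in GENCODE M21 transcripts, matched to genes by symbol. Replicates differed beyond sampling noise, with a chi-square per degree of freedom of 4.77 to 51.8 between libraries of a group.

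Named rows are the 5 higher and 5 lower of smallest p, the 10 of highest mean, the 2 highest of each length class, a fixed list of known motifs, complements of named rows, the 3 of widest spread within groups and the 4 nearest to the limit on each side. Some of these rows are not printed. Motif families in the text were chosen after their values were seen, and not by row number alone. Other families with many rows are left out. Among these, AAAAG (10 rows) and AAAAAG (10 rows) had median log2 fold changes of 0.28 and 0.23. The 6-base motifs AAAAAG and AAAAAC had 8 of 10 and 6 of 7 rows above 0. Members, lists and tests were chosen with earlier results of these data known. Within each gene list up to 3 of smallest p are named, and some genes that the rules give are not reported here.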

Additional observations from a re-analysis of the deposited data

How the results depend on the processing

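The count of 0 called simple repeats became 1 with equal totals, 1 with structural RNA rows left out before equal totals, 2 in DESeq2 and 89 with array weights (9 higher and 80 lower), and ran from 0 to 56 with 1 library left out. Over all 989 elements array weights called 25.6%, beside 23.6% of the simple repeats, and the fit without LINE-1a 1 called 15.8%, beside 14.9%. The median log2 fold change of -0.12 became 0.15 with equal totals, 0.066 with the size factors of the gene table, 0.17 without structural RNA rows and -0.23 with the rows of a motif summed, and ran from -0.23 to -0.035 with 1 library left out. Its distance to the table median became -0.30 with rows summed and ran from -0.29 to -0.080 with 1 library left out. Over the same omissions, multiples of 3 minus other lengths ran from -0.58 to -0.29 and GC over 50% minus no G or C from -0.66 to -0.37. With the rows of a motif summed these 2 differences were -0.32 and -0.69, and with a pseudocount of 5 they were -0.38 and -0.48. Among the 4 libraries with Y-linked expression, LINE-1a 3 is the only LINE-1a library. The median there was -0.16, which is the deviation of that library alone. The cause of these changes was not tested. Replicate numbers did not pair the libraries, since same-numbered libraries correlated at -0.36, 0.13 and -0.079 in their deviations, and the replicate block gave 0 calls. Class differences, the distance to the table median and the limits of the tract search were added after seeing the data.

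Of 856 values of 46 named rows under 19 alternatives, 764 kept direction and side of the threshold, 38 newly passed it and 54 changed sign. The sign changed with equal totals, giving (TTGT)n 0.047, (TG)n 0.26, (CA)n 0.033, (CCTGAAG)n 0.12, (TTCATCA)n 0.027, (C)n 0.095, (TC)n 0.070, (CCG)n 0.14 and (AATAA)n 0.11. It changed with gene size factors, giving (TG)n 0.17, (CCTGAAG)n 0.033, (C)n 0.0066, (CCG)n 0.054 and (AATAA)n 0.028. The values that changed sign with TMM factors were (T)n -0.026, (TTTTG)n -0.030 and (G)n -0.042. The sign changed in edgeR, giving (T)n -0.020, (TTTTG)n -0.035 and (G)n -0.10. It changed in DESeq2, giving (T)n -0.013, (TTTTG)n -0.028 and (G)n -0.090. The values that changed sign with array weights were (TG)n 0.079, (G)n -0.23 and (AATAA)n 0.0042. The sign changed in the libraries with Y-linked expression, giving (T)n -0.024, (TG)n 0.015, (AAAC)n -0.042, (TTTTG)n -0.087, (G)n -0.54 and (AATAA)n 0.080. It changed without structural RNA rows, giving (TTGT)n 0.069, (TG)n 0.28, (CA)n 0.055, (CCTGAAG)n 0.14, (TTCATCA)n 0.049, (C)n 0.12, (TC)n 0.092, (CCG)n 0.17, (AATAA)n 0.14 and (GGA)n 0.013. With 1 library left out, the values of (G)n ran from -0.24 to 0.38, (TTTTG)n from -0.068 to 0.12, (TG)n from -0.12 to 0.075, (CCTGAAG)n from -0.40 to 0.071, (CCG)n from -0.53 to 0.30, (AATAA)n from -0.33 to 0.00092 and (T)n from -0.076 to 0.12. With tracts of at least 30 bases the medians of rows with more than 50% and with no coding tracts were -0.37 (8 rows) and 0.16 (132 rows), and with all genes searched -0.42 (29 rows) and 0.15 (97 rows). A median of 40 reads per row and library limits the precision of single low rows.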
